A study of Mus musculus with 16 samples.

Results

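The genes described here encode delayed rectifier potassium channel subunits of the Kv2 and Kv3 families together with the silent subunits that assemble with Kv2. They were taken by name from both raw count tables of a translating ribosome study of mouse retina: Kcnb2, Kcnc1, Kcnc2, Kcnc4, Kcng4, Kcns1, Kcns2 and Kcnv2, which are 8 of the 47451 genes listed. The 8 genes have 12 transcripts in the tables, 5 of them having 1 transcript, and the transcript with the highest mean count stood for its gene. All 8 passed the filter on low counts in both tables.

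Kv2 channels, whose pores are built from Kcnb subunits, open slowly on depolarization and carry much of the sustained potassium current of neuronal cell bodies. Kv3 channels, encoded by the Kcnc genes, open only at strongly depolarized voltages and close quickly, which allows neurons to fire at high rates. Silent subunits of the Kcnf, Kcng, Kcns and Kcnv families make no channel by themselves, but join Kv2 subunits in mixed tetramers and shift the voltage range and kinetics of the Kv2 current. In the mouse retina Kcng4 (Kv6.4) is known from alpha-type ganglion cells, which a Kcng4-Cre line labels. Kcnv2 (Kv8.2) assembles with Kv2 subunits in rod and cone inner segments, and its loss in humans causes cone dystrophy with supernormal rod response.

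The study asked how the transcription factor BRN3B (Pou4f2) shapes intrinsically photosensitive retinal ganglion cells (ipRGCs), the ganglion cells that contain melanopsin. Opn4-Cre, driven from the melanopsin locus, switched on an HA-tagged ribosomal protein from Rpl22-HA, and messenger RNA bound to tagged ribosomes was immunoprecipitated (IP) from whole-retina lysate of mice at postnatal day 60, with the retinas of an animal combined. The first table holds 8 libraries: IP and input of Opn4-Cre; Rpl22-HA retinas (Rpl22HA, 2 each) and IP and input of Opn4-Cre retinas without the tag (noHA, 2 each), all labelled as pooled males and females. The second holds 4 control IPs, Opn4-Cre; Rpl22-HA, and 4 Brn3bcKO IPs, Opn4-Cre; Rpl22-HA with the conditional Brn3bcKO-AP allele, each with 3 male libraries and 1 female. Every group therefore carries Opn4-Cre, and both groups of the second table also carry the tag. The mice had a mixed strain background, and according to the methods the tag also marked some cones. An IP thus holds RNA on tagged ribosomes of all Cre-expressing cells. From such bulk samples alone, fewer cells of a type and less RNA per cell cannot be told apart. The study counted fewer HA-labelled ganglion layer cells in Brn3bcKO retinas and no significant difference in HA-labelled cones. Labelling for melanopsin gave it no change in ipRGC number. For selected transcripts it adjusted ipRGC-enriched genes for the ratio of HA-labelled ipRGCs to cones, which was not done here.

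Libraries of the first table summed to 2332612 to 14512132 counts, and those of the second to 12994498 to 20350881. Counts of 4 Y-linked genes summed to 0 to 7 in the noHA libraries against 135 to 370 in the Rpl22HA libraries, so any comparison with noHA cannot be told apart from the sex of the pooled animals. The targeted gene Pou4f2 stood at 36.8, 44.7, 53.6 and 64.2 CPM (read counts scaled to library size with TMM factors) in the control IPs and at 18.8, 24.9, 33.8 and 34.0 in the Brn3bcKO IPs. The groups did not overlap, and the log2 fold change of -0.83 (SE 0.222) had an adjusted p of 0.0852 in edgeR's quasi-likelihood test. The Brn3bcKO libraries thus kept part of the Pou4f2 signal, and its source was not tested. By in situ hybridization the study reported Brn3b RNA as absent from ipRGCs of adult Brn3bcKO retinas. Its discussion calls excision of the gene imperfect.

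Per kilobase of transcript, the members differed in level by more than an order of magnitude. In the control IPs the mean CPM per kilobase was 22.7 ± 7.64 (SD, n = 4) for Kcnv2, 17.3 ± 1.96 for Kcnc1, 9.44 ± 0.727 for Kcng4, 8.89 ± 2.88 for Kcnc2, 8.27 ± 2.19 for Kcnc4, 1.48 ± 0.247 for Kcnb2, 0.723 ± 0.375 for Kcns1 and 0.276 ± 0.105 for Kcns2. Kcnv2 and Kcnc1, and the neighbours from Kcng4 to Kcnc4, lay within 1 SD of each other, whereas Kcng4 and Kcnb2 were far apart. The photoreceptor silent subunit therefore had the highest mean level per length of the members in the control IPs. Kcng4 was the next silent subunit in order. In the first table Kcnv2 was at 48.1 CPM per kilobase in the noHA IPs and 31.2 in the Rpl22HA IPs. Beads without the tag thus held more of it, and its level is not a measure of tagged ribosomes alone. The tables were normalized separately, and the Rpl22HA IPs of the first table gave the same order except that Kcnc4 (7.17) lay above Kcnc2 (6.41).

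The ratio of Kcng4 to Kcnc2 did not overlap between Brn3bcKO and control libraries but did not pass after adjustment, as described further on. Their promoter windows are shown because the targeted gene encodes a transcription factor. Both are RefSeq windows of GRCm38.p6 from 250 bases before to 50 bases after the start site, 5′ to 3′ on the gene's strand, at chr8:119635631-119635930 (minus strand, Kcng4) and chr10:112270871-112271170 (plus strand, Kcnc2), and each begins its gene's representative transcript. Capitals mark the letters ATTAAT, a core that POU4 factors bind, and TAATCC, the core of the photoreceptor factor CRX, searched on both strands.
Kcng4: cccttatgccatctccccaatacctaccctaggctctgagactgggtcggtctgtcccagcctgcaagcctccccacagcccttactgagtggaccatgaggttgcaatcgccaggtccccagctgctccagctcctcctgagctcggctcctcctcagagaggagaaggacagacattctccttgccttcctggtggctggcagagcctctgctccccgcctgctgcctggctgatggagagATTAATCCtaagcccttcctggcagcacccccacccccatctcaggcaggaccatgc
Kcnc2: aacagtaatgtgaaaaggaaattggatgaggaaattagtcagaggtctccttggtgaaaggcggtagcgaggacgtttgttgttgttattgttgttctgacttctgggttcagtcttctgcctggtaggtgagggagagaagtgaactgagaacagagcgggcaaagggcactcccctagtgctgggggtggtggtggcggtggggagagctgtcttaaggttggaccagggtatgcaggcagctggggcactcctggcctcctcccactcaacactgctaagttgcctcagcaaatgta
The Kcng4 window held both words overlapping in 1 run of 8 bases, from position -7 for ATTAAT and from -5 for TAATCC, and the Kcnc2 window held neither. ATTAAT occurred in 4.75% and TAATCC in 7.06% of all 32851 windows. RefSeq windows matched 5 of the 8 members, and the windows of Kcnc1, Kcnc4 and Kcns1 held neither word. Unlike that of Kcns1, the windows of Kcnc1 and Kcnc4 lie at a start site other than that of the representative transcript. Kcnb2, Kcns2 and Kcnv2 had no window in the table.

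The first comparison asked which of these subunits were on tagged ribosomes more than in whole retina. Kcng4, the Kv3 genes Kcnc2 and Kcnc4, Kcnb2 and Kcns1 were higher in the Rpl22HA IP than in input, Kcnv2 was lower, and Kcnc1 and Kcns2 did not pass the test. That is 5 of 8 members higher and 1 lower, where 26.9% of the 14099 genes tested were higher, 12.1% lower and 39% called in either direction. The median log2 fold change of the members was 1.16 beside 0.21 over all genes. With upper-quartile in place of TMM normalization the shares over all genes became 18.2% higher and 18.9% lower, and 4 members were higher and 1 lower.

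Kcng4, the ganglion cell silent subunit, stood at 39.9 and 30.6 CPM in the Rpl22HA IPs, at 12.5 and 11.0 in their inputs, at 5.45 and 6.20 in the noHA IPs and at 9.41 and 13.9 in the noHA inputs. Both tagged IPs were above every other library of the table, and both untagged IPs were below every other. IP over input was 1.58 on the log2 scale (SE 0.210, adjusted p = 1.80e-05, edgeR). The difference between this enrichment and that of the untagged retinas was 2.65 (SE 0.325, adjusted p = 7.98e-06). The gene lies on chromosome 8 (119623854 to 119635680, mm10, minus strand), and its representative transcript has 3 exons and 3806 bases. Its second transcript, at 3.23 to 3.94 CPM in the Rpl22HA IPs, had an enrichment of 1.01 (adjusted p = 0.0728) and a difference from untagged of 2.58 (adjusted p = 0.00681).

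Kcnc4 (Kv3.4), which carries a fast-inactivating current, had much the same pattern. Its values were 27.7 and 24.9 CPM in the Rpl22HA IPs, 10.7 and 9.76 in inputs, 6.40 and 5.57 in noHA IPs and 15.1 and 9.36 in noHA inputs. Again the tagged IPs were the highest libraries and the untagged IPs the lowest. The enrichment was 1.36 (SE 0.216, adjusted p = 0.00011) and exceeded that without the tag by 2.30 (SE 0.335, adjusted p = 4.62e-05).

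Kcnc2 (Kv3.2) read 31.3 and 33.4 CPM in the Rpl22HA IPs, 11.0 and 10.6 in inputs, 8.22 and 16.1 in noHA IPs and 7.77 and 9.36 in noHA inputs. The tagged IPs stood above all other libraries, but the untagged IPs differed from each other and overlapped their inputs. IP over input was 1.58 (SE 0.246, adjusted p = 8.37e-05), and the difference from untagged was 1.11 (SE 0.377, adjusted p = 0.0279). The latter call was lost with DESeq2 (adjusted p = 0.0748) and without Rpl22HA IP 1 (0.0831), Rpl22HA IP 2 (0.0958), Rpl22HA input 1 (0.0680), Rpl22HA input 2 (0.0800), noHA IP 1 (0.130) or noHA input 2 (0.25).

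For Kcnc1 (Kv3.1), the Kv3 gene with the highest level per length among the members, the Rpl22HA IPs were at 46.1 and 41.9 CPM and their inputs at 33.3 and 27.5. The noHA IPs were at 19.0 and 27.1 and the noHA inputs at 43.4 and 27.3. Tagged IPs exceeded tagged inputs in both libraries, while untagged IPs were below untagged inputs, by little in 1 case. The enrichment of 0.53 (SE 0.209) had an adjusted p of 0.0575, which became 0.0405 with IP and input of a lysate paired as a replicate block. It also passed without noHA input 1 (0.0383) or noHA input 2 (0.0376) and with the 4 Rpl22HA libraries alone (0.0477), but was 0.28 without Rpl22HA IP 1 (0.500), 0.30 with upper-quartile normalization (0.304) and 0.43 with DESeq2 (0.240). The difference from untagged of 1.08 (SE 0.307) passed (adjusted p = 0.0102) but not without noHA IP 1 (0.0740), noHA input 1 (0.0534), Rpl22HA IP 1 (0.0670) or Rpl22HA input 2 (0.0565). A second Kcnc1 transcript carried 79.3% to 90.0% of the count of the first in the Rpl22HA IPs and was enriched by 0.61 (adjusted p = 0.0208).

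Of the 3 Kv3 members, 2 were thus higher in IP than in input, and all 3 had a larger IP to input difference with the tag than without it. Background for the latter test was 24.2% of genes higher, 20.4% lower and 44.6% in either direction. In the untagged retinas themselves, 2 of the 3, Kcnc1 and Kcnc4, were lower in IP than in input. In that comparison 25.5% of all genes were lower and 54.9% were called in either direction.

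The Kv2 pore subunit Kcnb2 (Kv2.2) was higher in IP than in input whether or not the tag was present. It was at 15.5 and 14.9 CPM in the Rpl22HA IPs and at 9.07 and 6.51 in inputs, and at 10.8 and 18.6 in noHA IPs and 7.77 and 7.95 in noHA inputs. All 4 IPs, tagged or not, were above all 4 inputs. The enrichment was 0.96 with the tag (SE 0.258, adjusted p = 0.00761) and 0.91 without it (SE 0.282, adjusted p = 0.0124), and the difference between them was 0.06 (SE 0.384, adjusted p = 0.924). The call with the tag was lost without Rpl22HA IP 1 (adjusted p = 0.101), Rpl22HA IP 2 (0.0664) or Rpl22HA input 2 (0.130), and the second transcript, with an enrichment of 0.53, did not pass (0.277).

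The photoreceptor subunit Kcnv2 was at 141 and 178 CPM in the Rpl22HA IPs, 361 and 336 in inputs, 228 and 263 in noHA IPs and 421 and 336 in noHA inputs. The tagged IPs were the lowest libraries and the inputs the highest. IP over input fell by 1.13 on the log2 scale with the tag (SE 0.171, adjusted p = 6.69e-05) and by 0.62 without it (SE 0.170, adjusted p = 0.00573). The difference of -0.51 (SE 0.240) had an adjusted p of 0.103, and passed without noHA IP 1 (0.0202) or Rpl22HA IP 2 (0.0265). Depletion of Kcnv2 RNA on the beads was thus measured also in retinas with no tag.

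Kcns1 (Kv9.1) and Kcns2 (Kv9.2), silent subunits known mainly from sensory and central neurons, were close to the limit of counting. Kcns1 stood at 2.23 and 1.65 CPM in the Rpl22HA IPs, 0.597 and 0.581 in inputs, 0 and 0.0705 in noHA IPs and 2.05 and 0.641 in noHA inputs. Raw counts were 26 and 21 in the tagged IPs and 0 and 1 in the untagged ones, a ratio of 44.3 per total count with a 95% interval of 7.57 to 1786 that covers counting error only. IP over input was 1.70 with the tag (SE 0.598, adjusted p = 0.0354), and the fitted difference from untagged of 6.01 (adjusted p = 0.000996) depends on how a count of 0 is treated. The first call was lost with DESeq2 (adjusted p = 0.207), upper-quartile normalization (0.0736), and without Rpl22HA IP 1 (0.347), Rpl22HA IP 2 (0.157), Rpl22HA input 1 (0.196) or Rpl22HA input 2 (0.204). Kcns2 was at 1.89 in both tagged IPs and at 1.43 and 1.63 in their inputs, with an enrichment of 0.30 (SE 0.508, adjusted p = 0.685). The noHA IPs were at 0.573 and 2.11, which spans the range of all other Kcns2 libraries of that table.

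**Figure D1:**
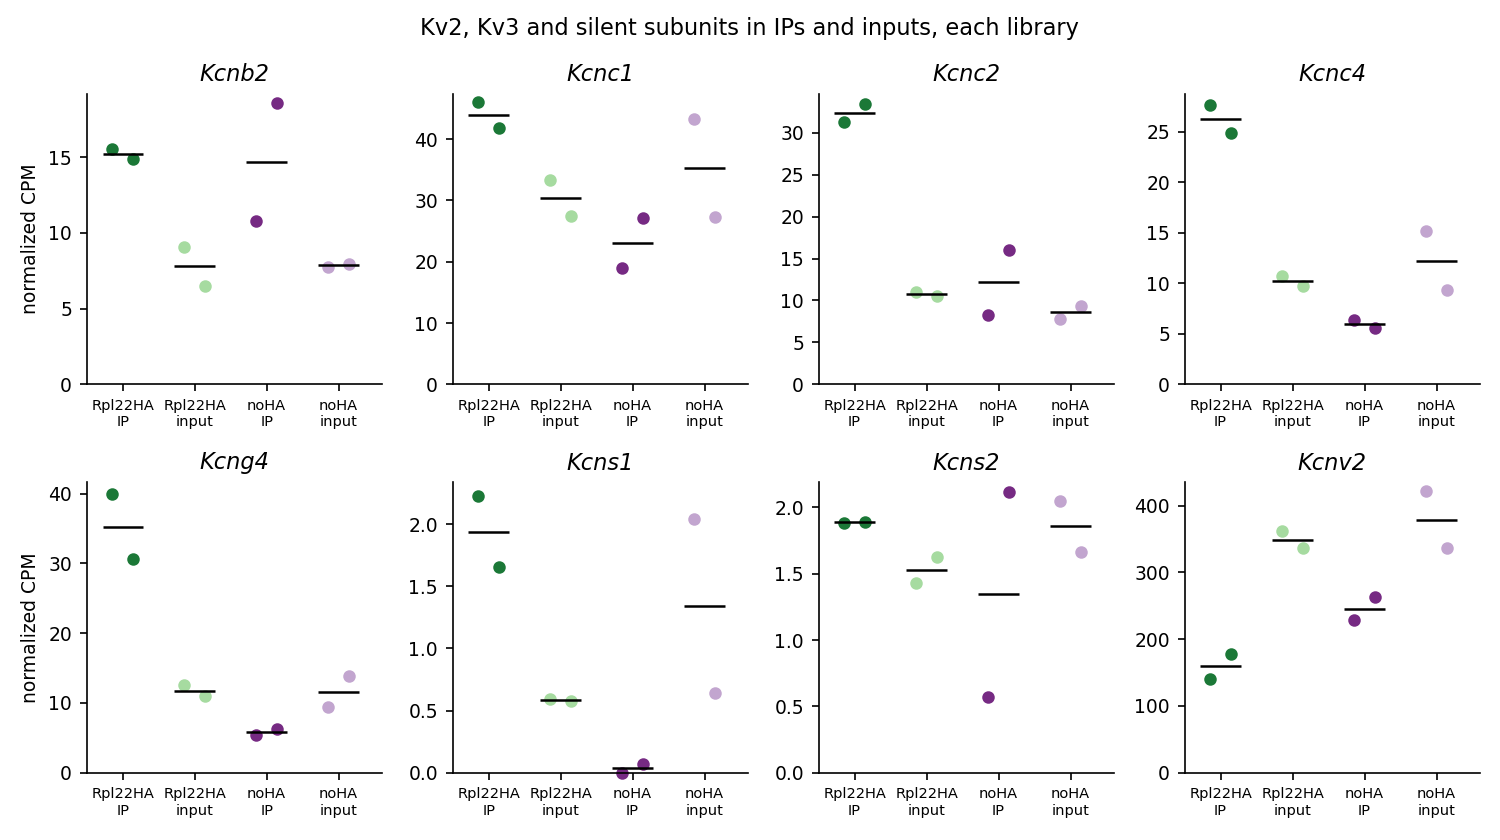
Normalized CPM (y axes) of the 8 members in each library of the first table, with points for single libraries and a line for the mean of 2. Kcng4, Kcnc2 and Kcnc4 were highest in the Rpl22HA IPs, Kcnv2 was lowest there, and Kcnb2 was above input in IPs with and without the tag.

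Among the silent subunits of the wider family, 7 of 10 could be tested, and 3 were higher (Kcng4, Kcns1 and Kcns3) and 1 lower (Kcnv2) in the IP, where 26.9% of all genes were higher and 12.1% lower. Kcns3 (Kv9.3), which is not a member, had the largest fold change of the silent subunits tested, at 9.68 and 13.1 CPM in the Rpl22HA IPs and 0.358 and 0.929 in inputs (4.11, SE 0.460, adjusted p = 2.73e-06). Of 4 tested accessory proteins of Kv2 and Kv3, 3 were higher in the IP: Amigo1 and Vapb, which bind Kv2 channels or place them at endoplasmic reticulum contacts, and Kcne2, a small accessory subunit. Of 11 other voltage-gated potassium pore genes tested, 7 were higher and 1, Kcna5, was lower, beside the same shares over all genes.

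Untagged IPs gave the background of the beads. There, 1 member (Kcnb2) was higher than input and 5 (Kcnc1, Kcnc4, Kcng4, Kcns1 and Kcnv2) were lower, where 29.4% of genes were higher, 25.5% lower and 54.9% called in either direction, and the median over members was -0.59 beside 0.07 over all genes. For the difference with against without the tag, 5 members were higher and none lower, with a median of 1.10 beside -0.05. At an unadjusted p under 0.05, 1 member was lower in that test, and the share of all genes at that threshold was not computed. Without the filter on low counts Kcnv2 passed the test, where 13.3% of genes were lower.

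Marker lists of the cells moved with these results. In the Rpl22HA IPs 14 of 15 pan-ganglion cell markers were higher than in input, with a summed level of 4290 to 4576 CPM against 737.8 to 779.8, and so were 7 of 8 ipRGC markers (288.1 to 310.9 against 68.2 to 82.56) and 11 of 12 cone markers (8394 to 10260 against 1686 to 1744). All 12 rod markers were lower (13250 to 14860 against 47750 to 53040), and the noHA IPs reached nearly the same rod level (12970 to 13990). No marker of these 4 lists was at 0 in the tagged IPs, and the part of each cell type in the values of the members was not tested.

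**Figure D2:**
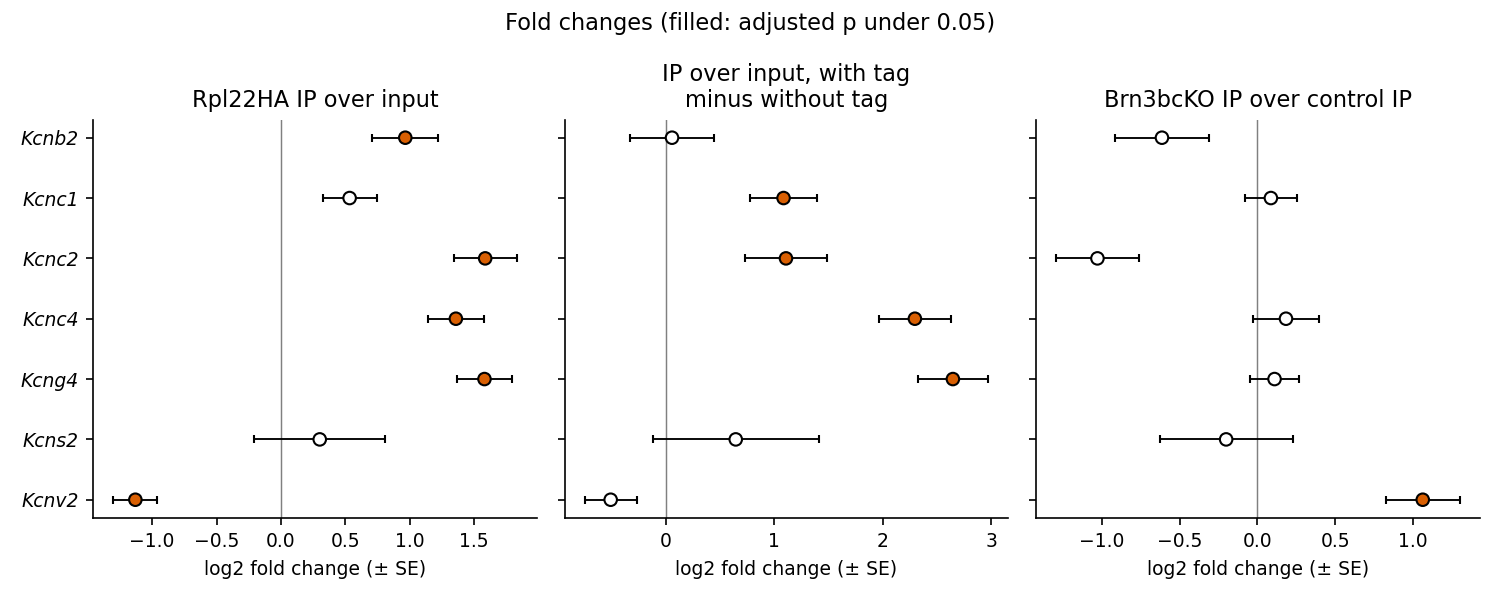
Log2 fold changes with SE (x axes) of 7 members for IP over input, for its difference with against without the tag, and for Brn3bcKO over control, with filled points for an adjusted p under 0.05. Kcns1 is left out because its counts in the untagged IPs were 0 and 1. Kcng4 and the 3 Kv3 members lie right of 0 in the first and middle panels, and only Kcnv2 is filled in the last.

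The second comparison asked which subunits depended on the conditional Brn3b allele. Kcnv2 was higher in the Brn3bcKO IPs and was the only member past the threshold. That is 1 of 8 members higher and 0 lower, where 0.682% of the 13927 genes tested were higher, 0.905% lower and 1.59% called in either direction. At an unadjusted p under 0.05, 2 members, Kcnc2 and Kcns1, were lower, a threshold for which the share of all genes was not computed. DESeq2 called 1 of them, Kcnc2 (adjusted p = 0.0118), where it called 2.58% of all genes lower and 5.11% in either direction. The median over the members was -0.06 beside 0.05 over all genes.

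Kcnv2 stood at 173, 98.8, 86.5 and 105.5 CPM in the control IPs and at 275, 184, 203 and 308 in the Brn3bcKO IPs. All 4 Brn3bcKO libraries were above all 4 controls, with control 1 the highest control. The log2 fold change was 1.06 (SE 0.237, adjusted p = 0.0446, edgeR). The call was lost without control 2 (adjusted p = 0.107), control 3 (0.177), control 4 (0.161), Brn3bcKO 1 (0.0840), Brn3bcKO 3 (0.0885) or Brn3bcKO 4 (0.111), and with sex as a covariate (0.0698), where the fold change was again 1.06. In the 6 male libraries alone the change was 0.79 (adjusted p = 0.321). Kcnv2 was not among the transcripts higher in Rpl22HA IP than in noHA IP, to which the methods restricted the study's own test.

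Marker lists of several cell types differed between the groups beside Kcnv2. Summed cone markers were at 4334 to 7497 CPM in control and 8583 to 12100 in Brn3bcKO, with 6 of 12 higher and a median of 0.92. The rod markers were at 7135 to 9586 and 10210 to 16330, with 0 of 12 past the threshold and a median of 0.53. At an unadjusted p under 0.05, 9 rod markers were higher, and the share of all genes at that threshold was not computed. Pan-ganglion cell markers were at 4020 to 5600 in control and 2424 to 3309 in Brn3bcKO, with 4 of 15 lower and a median of -0.56, and ipRGC markers at 320.4 to 476.3 and 275 to 392.9, with 1 of 8 lower. Lists of Muller glia (median 0.49, 0 of 10 past the threshold), amacrine cells (0.40, 0 of 9) and bipolar cells (0.37, 1 of 10, Cabp5) also had medians above that of all genes. No marker of these lists was at 0, and their part in the Kcnv2 result was not tested.

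Kcng4 gave 35.8, 37.0, 38.7 and 32.2 CPM in control and 36.8, 32.7, 43.0 and 42.6 in Brn3bcKO. The groups overlapped, with 2 Brn3bcKO libraries within the control range and 2 above it. Its log2 fold change was 0.11 (SE 0.158, adjusted p = 0.791). It was 0.83 when libraries were scaled to the pan-ganglion cell markers, a scaling that moved the median of all transcripts from 0.03 to 0.77. Of the 15 markers used, 4 were themselves lower in Brn3bcKO, and scaling to a list that falls raises the other genes. Relative to that shift, Kcng4, Kcnc1 (0.83) and Kcnc4 (0.93) stayed near the middle of all genes.

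Kcnc2 read 26.7, 40.3, 52.7 and 59.7 CPM in control and 12.9, 22.5, 29.6 and 22.9 in Brn3bcKO. Only control 1 and Brn3bcKO 3 kept the groups from being apart. The log2 fold change of -1.03 (SE 0.266) had an adjusted p of 0.0763. It passed without control 1 (0.0292), without the filter on low counts (0.00106) and among the transcripts of the methods' selection (0.0495). The shares of all genes lower in these settings were 0.766%, 0.987% and 2.87%, in that order, beside 0.905% in the main fit. Under the scaling to ganglion cell markers it was -0.29, again below the middle of all genes.

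The other Kv3 members overlapped between the groups. Kcnc1 was at 62.4, 49.0, 50.3 and 56.6 CPM in control and 65.5, 45.7, 55.5 and 65.0 in Brn3bcKO (0.09, SE 0.168, adjusted p = 0.851). Kcnc4 was at 34.7, 26.7, 20.9 and 38.9 in control and 27.5, 29.6, 38.5 and 41.9 in Brn3bcKO (0.18, SE 0.212, adjusted p = 0.735). Of the alternatives run, only the scaling to ganglion cell markers called them, both higher. Under that scaling 60.8% of all genes were called higher and 0.352% lower.

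Kcnb2 was at 17.1, 24.5, 21.5 and 25.1 CPM in control and at 7.03, 10.9, 13.9 and 25.4 in Brn3bcKO. Except for Brn3bcKO 4, which was the highest library of all 8, the Brn3bcKO libraries lay below every control. The log2 fold change was -0.61 (SE 0.301, adjusted p = 0.354), and -1.07 without Brn3bcKO 4 (adjusted p = 0.0602). Brn3bcKO 4 was 1 of the 2 female libraries.

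Kcns1 was at 3.24, 0.952, 2.28 and 1.38 CPM in control and 1.12, 0.150, 0.570 and 1.31 in Brn3bcKO (-1.29, SE 0.515, adjusted p = 0.25). Kcns2 was at 2.01, 1.98, 0.879 and 1.16 in control and 0.479, 1.05, 1.88 and 1.66 in Brn3bcKO (-0.20, SE 0.427, adjusted p = 0.868). Both genes overlapped between the groups, and their raw counts there were 2 to 44 per library. Kcns3, outside the members, fell by 1.23 (SE 0.256, adjusted p = 0.0336) from 7.57, 8.57, 14.2 and 11.4 CPM to 2.95, 5.23, 4.33 and 5.28, with no overlap. This call was lost without control 3 (0.155), control 4 (0.115), Brn3bcKO 1 (0.0585) or Brn3bcKO 3 (0.102), in male libraries only (0.179) and with scaling to ganglion cell markers, where the change was -0.48 (0.175). Over the 7 silent subunits tested, 1 was higher (Kcnv2) and 1 lower (Kcns3).

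**Figure D3:**
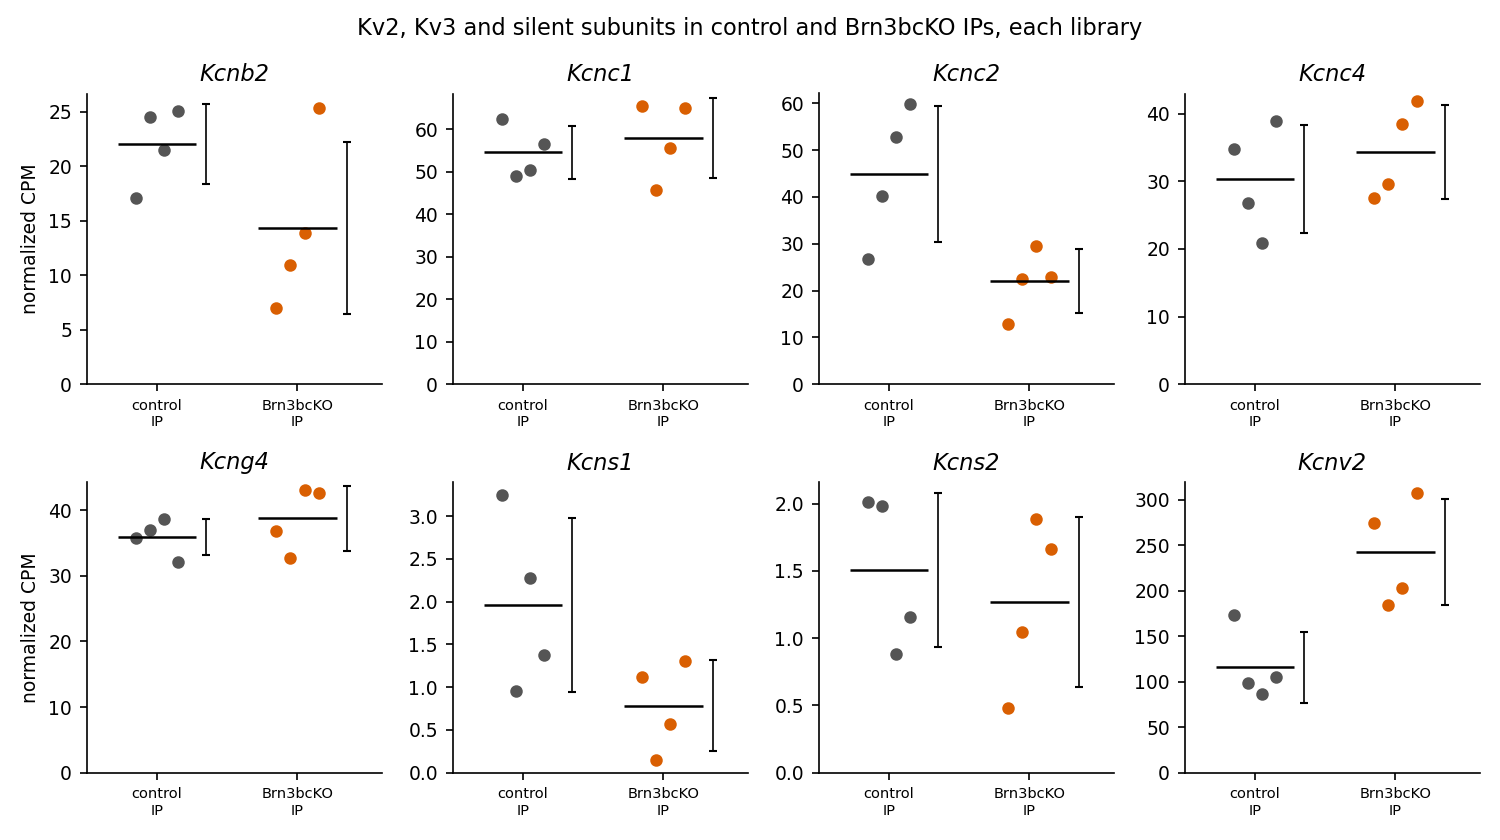
Normalized CPM (y axes) of the 8 members in each control and Brn3bcKO IP, with points for libraries, lines for the mean and bars for the SD (n = 4). The groups are apart for Kcnv2, nearly apart for Kcnc2 and overlap for the other 6 members.

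The silent subunits were set against Kcnb2 and the Kv3 members within each library, as the log2 ratio of normalized CPM. The test was an exact two-sided permutation test over the 70 splits of 4 against 4 libraries, whose smallest possible p is 0.0286, with p-values adjusted over the 10 ratios computed, 8 of which are given. None of these 8 passed after adjustment, and 5 of them reached the smallest p with an adjusted p of 0.0571. With so few splits, a ratio could pass only if most of the 10 reached the smallest p. Ratios with the same silent subunit share its values and are not independent results.

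Against each of these 4 subunits Kcnv2 was relatively higher in all 4 Brn3bcKO libraries than in any control, by 1.85 for Kcnb2, 2.11 for Kcnc2, 1.01 for Kcnc1 and 0.89 for Kcnc4 on the log2 scale (exact p = 0.0286 each).

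Kcng4 to Kcnc2 was -0.26 ± 0.555 (SD, n = 4) in control and 0.87 ± 0.458 in Brn3bcKO, a difference of 1.13 with no overlap (exact p = 0.0286). Kcng4 to Kcnb2 differed by 0.87 (exact p = 0.0857, adjusted 0.122). The ratios of Kcng4 to Kcnc1 (0.03) and to Kcnc4 (-0.09) had the smallest differences of the 8 (exact p = 0.886 and 0.714). Among the Kv3 members, Kcnc2 was the 1 whose ratio to Kcng4 did not overlap between the groups. It did not pass after adjustment (permutation test, adjusted p = 0.0571). How often ratios of other gene pairs are free of overlap was not computed.

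**Figure D4:**
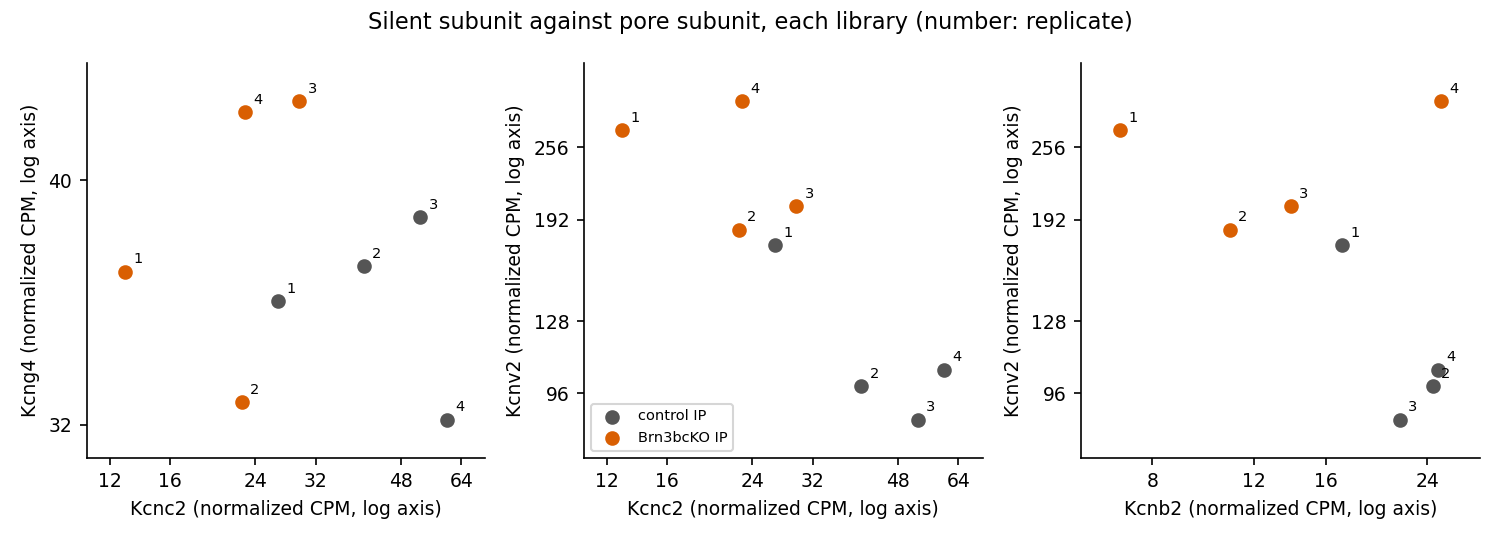
Normalized CPM (log axes) of Kcng4 against Kcnc2, Kcnv2 against Kcnc2 and Kcnv2 against Kcnb2, with 1 point per IP library and its replicate number. Brn3bcKO points lie left of the control points at like Kcng4 levels, and all 4 Brn3bcKO points lie above the controls in Kcnv2.

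Between IP and input the same ratios are given as values only, since 2 against 2 libraries cannot pass an exact test. Kcng4 to Kcnc1 was -0.33 in the Rpl22HA IPs and -1.36 in inputs, a difference of 1.03, and Kcng4 to Kcnb2 differed by 0.59, whereas Kcng4 to Kcnc2 (-0.01) and Kcng4 to Kcnc4 (0.21) differed little. Kcnv2 to the same 4 subunits differed by -1.68 to -2.72.

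Across all 16 libraries, centred within each table, the genes most like Kcng4 among 7252 genes were Hprt (Pearson r = 0.963), Tubb3 (0.959), H2-D1 (0.959), Ckmt1 (0.958) and Gabarapl1 (0.956). Within the family, Kcng4 had an r of 0.844 with Kcnc4, 0.703 with Kcnc1, 0.568 with Kcnc2 and 0.175 with Kcnb2. The genes most like Kcnv2 were Podxl (0.937), Lhx4 (0.927), Agpat3 (0.927), Ppil4 (0.915) and Usp1 (0.914), and its r was -0.609 with Kcnb2 and -0.847 with Kcnc2. These correlations describe libraries that share their groups, their depth and the separation of IP from input.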

How the data were processed

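The authors made Smart-seq3 libraries from IP and input RNA, sequenced them as 37 bp paired-end reads and aligned them to mm10 with the Smart-seq3 pipeline. The aligner settings and annotation release were not given in the sources used here. The deposited values are raw read counts per transcript, in 2 tables of 8 libraries with 117877 rows each.

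Transcripts passing filterByExpr (minimum count 10; 45189 and 43975) were fitted per table with edgeR 4.0.16 (R 4.3.3): TMM scaling, group means, glmQLFit and glmQLFTest, and Benjamini-Hochberg adjustment over all transcripts tested, called at 0.05. Adjusted p-values come from this fit unless DESeq2 1.42.0 is named. Gene counts use 1 representative transcript each. CPM were TMM-normalized within a table. GENCODE M21 gave transcript lengths and positions and matched 99.1% of transcripts. The methods kept only transcripts higher in Rpl22HA IP than in noHA IP, but the whole tables were fitted here so that every member was tested. Ratios of 2 genes were tested by exact permutation with scipy 1.17.1.

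The members and lists were chosen with earlier results of these data known. Named with values are the 8 members, Kcns3 beside them, Pou4f2, and the 5 genes most like Kcng4 and Kcnv2. Amigo1, Vapb, Kcne2, Kcna5 and Cabp5 are named because they passed the test within their lists. IP and input of a number come from 1 lysate by the protocol, and their deviations from the group means correlated at 0.0256 (Rpl22HA) and 0.0765 (noHA). For the control and Brn3bcKO IPs the study gives 4 mice per group. For the first table, whose libraries are labelled as pooled males and females, p-values measure only the spread between these libraries. The fit was also run on simulated counts, with 1 spread shared by all transcripts and changes put only into transcripts with higher counts. Its outcome is not given here, and it does not bear on genes with few counts or their own spread. Some results of the family are not reported here.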

Additional observations from a re-analysis of the deposited data

Results flagged for a closer look

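For 5 members the IP to input difference was larger in retinas with the tag than in those without it, by a test of that difference (edgeR, adjusted over all transcripts). On the log2 scale the values were 2.65 for Kcng4 (adjusted p = 7.98e-06), 2.30 for Kcnc4 (adjusted p = 4.62e-05), 1.11 for Kcnc2 (adjusted p = 0.0279), 1.08 for Kcnc1 (adjusted p = 0.0102) and 6.01 for Kcns1 (adjusted p = 0.000996). Over all genes 24.2% were higher in this test and 44.6% were called in either direction. The Kcnc1 call was lost in 4 of 14 alternatives and the Kcnc2 call in 7 of 13. Both Rpl22HA IPs were above both noHA IPs in each of the 5, but these are values that the test itself used and add nothing to it. By Dixon's criterion (the gap to the nearest library over the range of the group), no library stood apart from its group in the 16 groups checked, the 8 members in control and in Brn3bcKO.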

How the results depend on the processing

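Over single genes and ratios, 407 of 478 alternatives kept direction and side of the threshold, 37 lost a call, 16 gained one and 18 turned the sign. The cause of these changes was not tested, except that fewer libraries leave fewer degrees of freedom. In IP over input, 5 members higher and 1 lower became 1 and 0 with second transcripts (3 genes have one) and 0 lower in the methods' selection, which leaves Kcnv2 out. Without single libraries 3 to 6 were higher. For the difference with against without the tag, 5 higher became 2 with second transcripts and 3 to 5 without single libraries, and 0 lower became 1 (Kcnv2) with no filter on low counts and 0 to 1 without single libraries.

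For Brn3bcKO over control, 1 higher became 0 in the methods' selection, with second transcripts, with sex as a covariate and in male libraries only, 4 with scaling to ganglion cell markers, and 0 to 1 without single libraries. Of members lower, 0 became 1, always Kcnc2, with DESeq2, with no filter, in the methods' selection, with the replicate block and, as 0 to 1, without single libraries. Library numbers of the second table share only a number: r between same-numbered control and Brn3bcKO libraries was 0.395, 0.217, 0.0484 and 0.00957, and not every library correlated best with its own number. The replicate block moved calls over all genes from 221 to 652 (Kcnc2 adjusted p = 0.00476). DESeq2 called 712 genes (353 higher and 359 lower), no filter 587 and the methods' selection 304 of 7172. The male libraries gave 56 calls, scaling to ganglion cell markers 8517, and fits without single libraries 60 to 215. In IP over input, DESeq2 called 4021 genes beside 5495.

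Signs turned for Kcnb2 in the tag difference (-0.0080 with DESeq2, -0.034 with upper-quartile scaling, -0.057 with no filter, -0.43 to 0.40 without single libraries) and in Brn3bcKO (0.070 with ganglion cell scaling). Kcns2 turned in the tag difference (-0.11 to 1.79 without single libraries) and in Brn3bcKO (0.47 with ganglion cell scaling, -0.45 to 0.033 without single libraries). In male libraries only, Kcnc1 was -0.030 and Kcnc4 -0.0915. Without single libraries Kcng4 to Kcnc1 ran from -0.046 to 0.11 and Kcng4 to Kcnc4 from -0.28 to 0.11, and 0 of 10 ratios passed, which 3 against 4 libraries make impossible at this number of ratios. The fits of male libraries and of Rpl22HA libraries alone were chosen after seeing the data. Kcns1 and Kcns2 had few counts, and with 2 libraries a group the first table measures spread poorly.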
